A study of Saccharomyces cerevisiae with 15 samples.

Results

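The genes described here encode the enzymes that turn acetaldehyde into acetate and acetate into acetyl-CoA in budding yeast, Saccharomyces cerevisiae. They are 5 aldehyde dehydrogenase genes (ALD2, ALD3, ALD4, ALD5 and ALD6) and 2 acetyl-CoA synthetase genes (ACS1 and ACS2), and were taken by gene name from the non-control spots of both arrays. They make up 7 of the 6256 genes on the arrays. Each array hybridised Cy3-labelled total RNA of BY4741 grown in YPD against Cy5-labelled genomic DNA. BY4741 is a haploid laboratory strain that lacks HIS3, LEU2, MET17 and URA3, and YPD is a rich medium with glucose. The series design describes the RNA as mid-log, and its purpose here was to give reference expression levels for judging strand-specific RNA sequencing libraries. Those 13 libraries were not analysed here. The source of the DNA is named as BY4741, while its strain tag reads progenitor. The 4 deleted genes had DNA intensities from -3.11 to 7.39, against a median of 4184 on array 1 and 4558 on array 2. There was 1 growth condition, so no response to glucose was measured, and "glucose-repressed" below is background knowledge of a gene.

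In yeast growing on glucose, pyruvate decarboxylase makes acetaldehyde, most of which alcohol dehydrogenase reduces to ethanol. Aldehyde dehydrogenases oxidise the remainder to acetate, and acetyl-CoA synthetases join acetate to coenzyme A. This route, the pyruvate dehydrogenase bypass, is the main source of acetyl-CoA in the cytosol, where it feeds fatty acid and sterol synthesis. Ald6 is the main cytosolic aldehyde dehydrogenase and uses NADP, so it also yields NADPH. Ald4 and Ald5 are mitochondrial, and ALD4 is known to be repressed by glucose. Ald2 and Ald3 are cytosolic enzymes that supply beta-alanine for coenzyme A synthesis, and their genes are known to be induced by stress and repressed by glucose. Acs2 is the synthetase that cells need for growth on glucose, while ACS1 is repressed by glucose.

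Each gene had 1 probe printed as 7 spots. The value used is log2 of the RNA intensity over the DNA intensity at the same spot, as the median over spots. It is centred on the median gene of each array, so that a value of 0 is the median gene. Intensities of different probes are not on 1 scale per length, and the ratio to DNA is the measure used to compare genes. RNA was well above background at all 98 spots of these genes on both arrays. For scale, RNA of the median gene read 1135 on array 1 and 1390 on array 2. Both arrays were on the same slide and nothing in the labels assigns them to separate cultures, so every p-value covers only array-to-array spread, possibly all technical. In such bulk RNA, fewer cells with a transcript and less transcript per cell cannot be told apart.

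Levels were highest for the cytosolic ALD6, then for the mitochondrial ALD5 and for ACS2, near the median gene for ALD4 and ACS1, and lowest for ALD2 and ALD3. Relative to the median gene, 3 of the 7 were called above, 2 below and 2 were not called. A gene was called at a limma adjusted p under 0.05 and an absolute log2 ratio of at least 1. Of all 6250 genes tested, 28.2% were called above, 31.2% below and 59.4% in either direction, so most genes of any kind fell outside the band around the median. The calls therefore place each gene and do not set the family apart.

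ALD6 (YPL061W), the main cytosolic aldehyde dehydrogenase, had RNA intensities of 47184 on array 1 and 52513 on array 2. Its log2 ratios were 3.62 and 3.55, so both arrays placed it far above the median gene. The mean of 3.58 ± 0.05 (SD, n = 2) is 12.0-fold the median gene (95% interval 3.46 to 3.70 on the log2 scale, limma adjusted p = 5.15e-05). It ranked 199 among the 6250 genes. Its DNA signal, at 3.02 times the median gene's, was also the highest of the family, and with RNA alone its level was 5.31 ± 0.10. The 2 levels differ only in the division by the DNA signal and the centring after it. Why the DNA signal of ALD6 was high was not tested.

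ACS2 (YLR153C), the synthetase needed on glucose, had RNA intensities of 8330 and 9899 on arrays 1 and 2. Its log2 ratios of 2.44 and 2.30 gave a mean of 2.37 ± 0.10 (SD, n = 2), 5.16-fold the median gene (limma adjusted p = 0.000107). The SD between its spots was 0.23 on array 1 and 0.17 on array 2, against 0.09 and 0.04 for ALD5. Spots of 1 probe are technical repeats and do not count as replicates.

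ALD5 (YER073W), a mitochondrial form, had RNA intensities of 10064 and 11818. Its log2 ratios of 2.46 and 2.32 gave a mean of 2.39 ± 0.10 (SD, n = 2), 5.25-fold the median gene (limma adjusted p = 0.000104). ALD5 and ACS2 held ranks 531 and 545, and their values overlapped between arrays.

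ALD4 (YOR374W), the glucose-repressed mitochondrial form, had RNA intensities of 1710 and 2056. Its log2 ratios were 0.10 and 0.15, close to the median gene on both arrays. The mean was 0.12 ± 0.04 (SD, n = 2; 95% interval 0.01 to 0.23, limma adjusted p = 0.0429) and fell short of the size needed for a call. Without the genes whose RNA lay at the detection floor, the median gene moves up by 0.19 and ALD4 lies at -0.072, while with RNA alone it lies at 0.58 (limma adjusted p = 0.000762).

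ACS1 (YAL054C), the glucose-repressed synthetase, had RNA intensities of 486 and 606. Its log2 ratios of -0.36 and -0.34 gave a mean of -0.35 ± 0.02 (SD, n = 2; limma adjusted p = 0.00229), not called. Its DNA signal was the lowest of the family, at 0.515 times the median gene's. With RNA alone, ACS1 lay at -1.21 ± 0.02 and was called below (limma adjusted p = 0.00014), where 58.8% of all genes were called in either direction. The 2 values differ only in the division by the DNA signal and the centring after it, so the change is set by construction. Why the DNA signal of ACS1 was low was not tested.

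ALD2 (YMR170C) and ALD3 (YMR169C), the cytosolic stress-induced pair, were the lowest of the family. ALD2 had RNA intensities of 461 and 573, and log2 ratios of -1.30 and -1.17. Its mean of -1.23 ± 0.09 (SD, n = 2) is 2.35 times below the median gene (limma adjusted p = 0.000302). ALD3 had RNA intensities of 264 and 317, and log2 ratios of -2.39 and -2.24. Its mean of -2.31 ± 0.11 (SD, n = 2) is 4.97 times below the median gene (limma adjusted p = 0.000118). Both were still detected: the lowest RNA intensity among ALD3 spots was 226 and 303 on the first and second array, where the detection floors were 17.05 and 32.9. The genes are adjacent on chromosome XIII and close paralogs. Probe sequences were not used here, so how far each probe also reads the other transcript was not tested.

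The deposited annotation places ALD2, ALD3 and ALD6 in the cytoplasm and ALD4 and ALD5 in the mitochondrion, and gives no component for ACS1 and ACS2. By RefSeq, the aldehyde dehydrogenase coding regions span 1503 to 1563 bases, and those of ACS1 and ACS2 span 2142 and 2052 bases. ACS1 lies on chromosome I, ALD5 on V, ACS2 on XII, ALD4 on XV and ALD6 on XVI.

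DNA signals differed less between these genes than RNA signals did. The highest was 5.98 times the lowest on array 1 and 5.74 times on array 2, while RNA spanned 179-fold and 166-fold. ALD6 had DNA intensities of 12497 and 13890 on arrays 1 and 2, and ACS1 had 2088 and 2422. ALD6 DNA thus stood at percentiles 97.0 and 97.1 of all genes, and ACS1 DNA at 6.32 and 8.38. The other 5 genes lay between 0.790 times the median gene's DNA signal for ALD2 and 1.54 times for ALD5.

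The RNA intensities of single spots show the spread within a probe. ALD6 spots ran from 39874 to 51185 on array 1 and from 50861 to 56352 on array 2. ACS2 spots ran from 6557 to 11684 and from 8971 to 13891, a wider relative spread, and ALD3 spots from 226 to 281 and from 303 to 374.

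**Figure D1:**
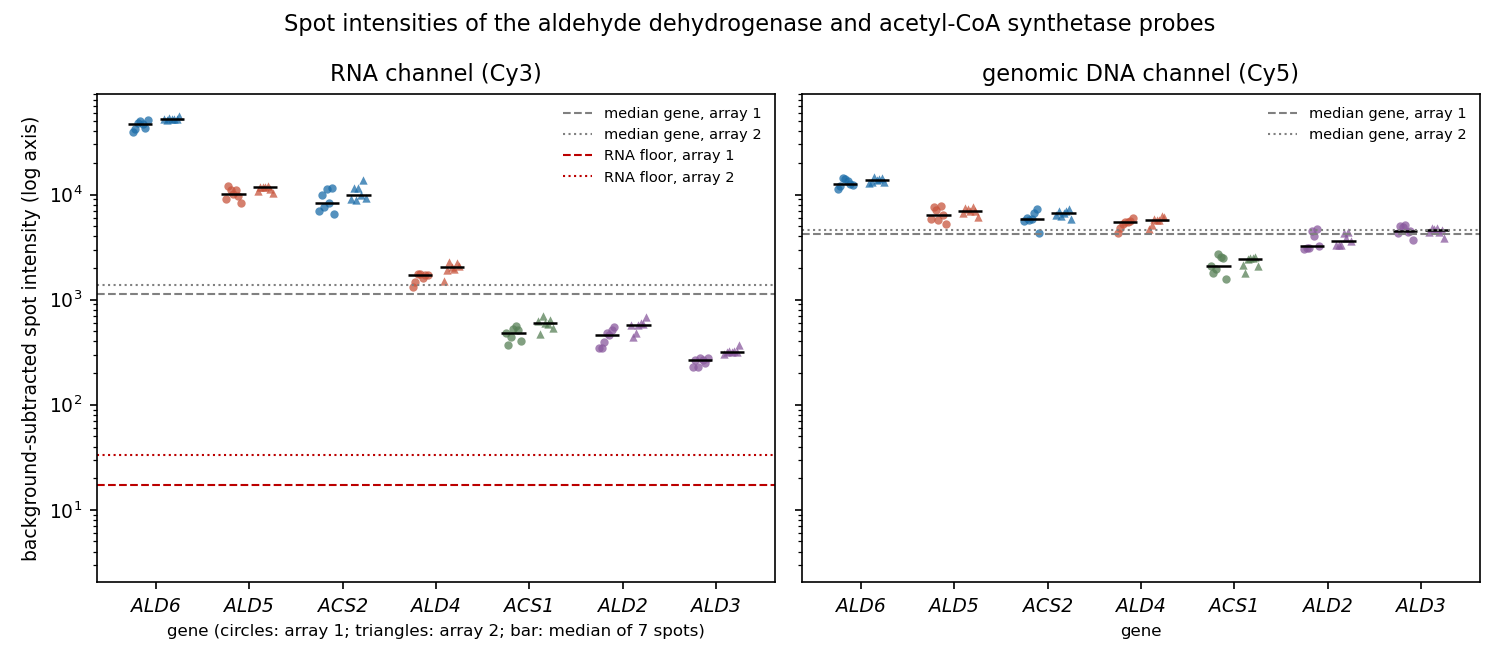
RNA and DNA intensities of the 7 genes on both arrays, on log axes. ALD6 has the highest signal in both channels, while ALD3 has the lowest RNA signal and ACS1 the lowest DNA signal.

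**Figure D2:**
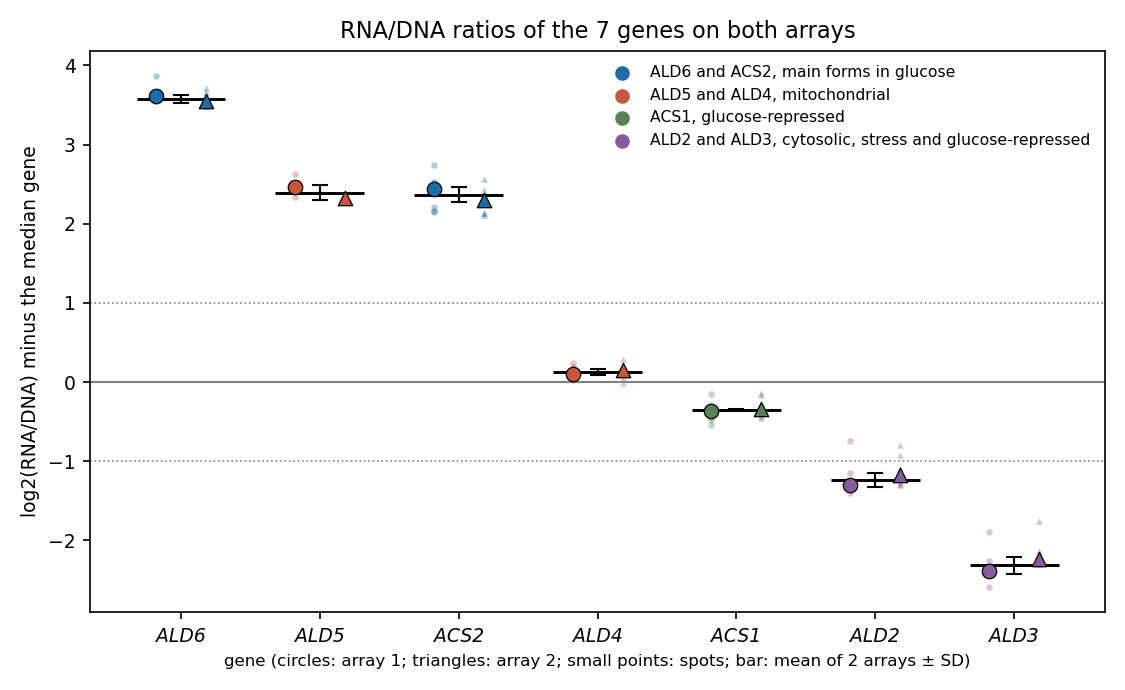
Centred log2 RNA/DNA ratios of the spots of each gene on arrays 1 and 2, with the mean of the arrays. The values run from a mean of 3.58 for ALD6 to -2.31 for ALD3, and 0 is the median gene.

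**Figure D3:**
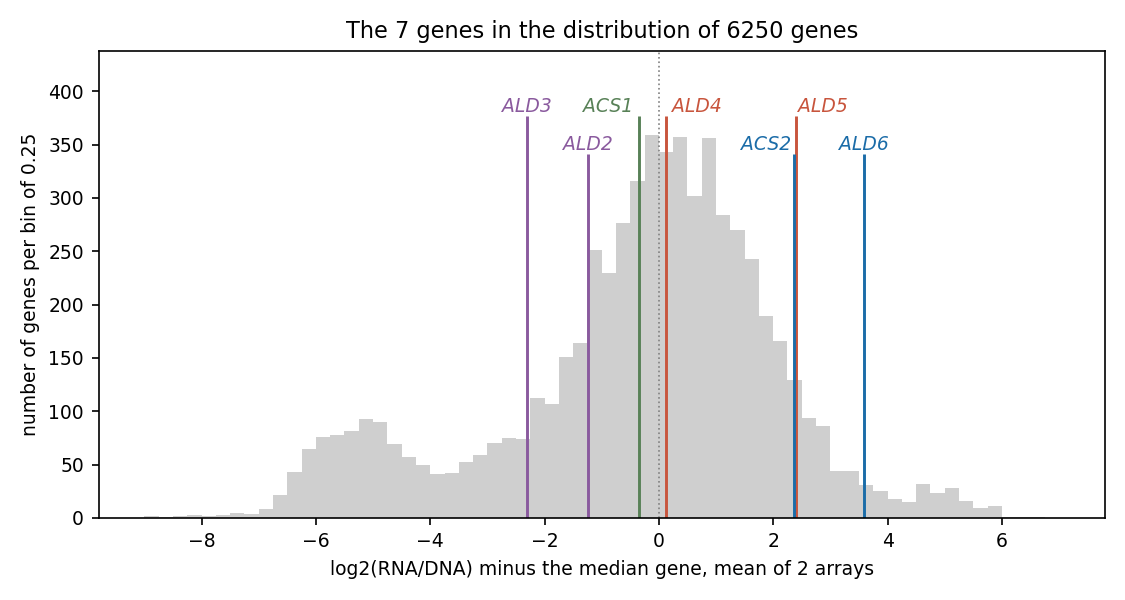
Distribution of the mean log2 RNA/DNA ratio over all 6250 genes, with the 7 genes marked. ALD6, ALD5 and ACS2 lie in the upper tail, ALD4 and ACS1 near the centre, and ALD2 and ALD3 below it.

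The genes were then compared with each other, in 21 pairs. Each fit set every gene on the arrays against 1 member, and 18 pairs were called. All 21 differences had the same sign on both arrays. The background of these fits is high, because most genes differ from any given gene. Of the other genes, 94.6% were called against ALD6, 87.6% against ALD3, 82.8% against ALD5, 82.4% against ACS2, 74.3% against ALD2, 61.8% against ACS1 and 58.7% against ALD4. Of the other 6 members, 6 were called against ALD6 and 6 against ALD3, 5 each against ALD5, ACS2, ALD2 and ALD4, and 4 against ACS1. Fits against ALD2, ALD3, ALD5 and ACS2 pooled the spread over all genes and gave p-values and intervals that rest on that pooled spread, so those p-values are not given. The intervals below for ALD2 minus ALD3, ALD4 minus ALD5, ACS1 minus ACS2 and ALD6 minus ACS2 come from these fits. They are not like measures to the other intervals. From the summed variances these 4 intervals were 0.84 to 1.32, -2.47 to -2.07, -2.92 to -2.52 and 1.01 to 1.42. Summed variances take the members of a pair as independent, though both were read on the same 2 arrays. Such intervals, here and below, can therefore be too narrow or too wide. With the variances of both members summed instead, the same 18 pairs were called, the highest unadjusted p among them being 0.000831. Both ways use the same differences and the same size for a call, and the 3 pairs not called are those under that size. The shared calls are therefore no separate support.

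Among cytosolic forms, ALD2 minus ALD6 was -4.92 on array 1 and -4.72 on array 2. The mean of -4.82 (95% interval -5.02 to -4.62, limma adjusted p = 1.10e-06) puts ALD6 28.2-fold higher. ALD3 minus ALD6 was -6.00 and -5.78, and its mean of -5.89 (-6.11 to -5.68) puts ALD6 59.5-fold higher, which spans the family. With RNA alone these differences were -6.598 for ALD2 and -7.43 for ALD3. ALD2 minus ALD3 was 1.09 and 1.07, a 2.11-fold difference (mean 1.08, 95% interval 0.86 to 1.30). This difference was only just large enough for a call. It was 0.83 with RNA alone and 0.98 with processed signals, and was not called in either.

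Between the mitochondrial forms, ALD4 minus ALD5 was -2.37 and -2.17. The mean of -2.27 (95% interval -2.53 to -2.01) puts ALD5 4.82-fold above the glucose-repressed ALD4. Across compartments, ALD4 minus ALD6 was -3.52 and -3.40, with ALD6 11.0-fold higher (mean -3.46, 95% interval -3.62 to -3.29, limma adjusted p = 1.43e-06), and -4.73 with RNA alone. ALD5 minus ALD6 was -1.15 and -1.22, with ALD6 2.28-fold higher (mean -1.19, 95% interval -1.34 to -1.04, limma adjusted p = 3.16e-05). From the summed variances the interval was -1.39 to -0.98, which reaches just under the size for a call. With RNA alone, ALD5 minus ALD6 was -2.19.

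Between the synthetases, ACS1 minus ACS2 was -2.80 and -2.64. The mean of -2.72 (95% interval -2.98 to -2.46) puts ACS2 6.59-fold above the glucose-repressed ACS1. The DNA signal of ACS2 was 2.84 and 2.74 times that of ACS1, and with RNA alone the difference was -4.07. ALD6 minus ACS2, the main glucose forms of the consecutive steps, was 1.178 and 1.247, with ALD6 2.32-fold higher (mean 1.21, 95% interval 0.95 to 1.47). With RNA alone that difference was 2.45. The glucose-repressed ACS1 and ALD4 lay closer together: ACS1 minus ALD4 was -0.46 and -0.49, a mean of -0.47 (95% interval -0.60 to -0.34, limma adjusted p = 0.00103), under the size for a call. With RNA alone this difference was -1.79 and was called.

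In order of level, the genes ran ALD6, ALD5, ACS2, ALD4, ACS1, ALD2 and ALD3. ALD5 and ACS2 were not separated by the ratio. Their difference was 0.023 on array 1 and 0.024 on array 2, with a 95% interval of -0.24 to 0.29 from the pooled fit and -0.21 to 0.26 from the summed variances. Both intervals allow a modest difference in either direction. ALD5 was higher by 0.17 with processed signals (limma adjusted p = 0.0249) and by 0.26 with RNA alone (limma adjusted p = 0.00681), under the size for a call in each. ALD4 and ACS1, and ACS1 and ALD2, differed by less than the size for a call. ALD2 minus ACS1 was -0.94 and -0.83, a mean of -0.88 (95% interval -1.03 to -0.74, limma adjusted p = 0.000504). With RNA alone it was -0.078. The DNA signals of ALD2 and ACS1 were 0.790 and 0.515 times the median gene's. By construction, the change with RNA alone comes from leaving out the division by these signals. ALD3 minus ACS1 was -2.03 and -1.90, a mean of -1.96 (limma adjusted p = 0.000123), and was -0.91 and not called with RNA alone.

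**Figure D4:**
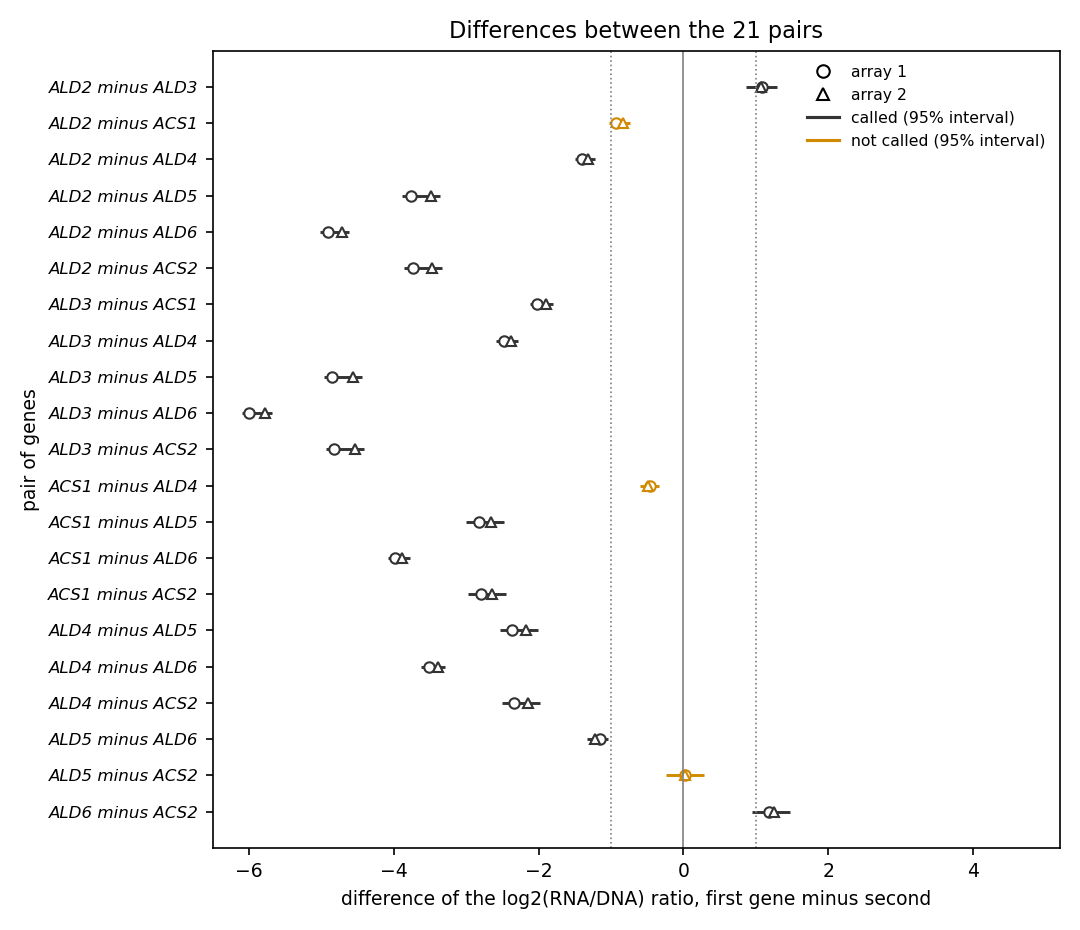
Differences in log2 RNA/DNA ratio for the 21 pairs of genes, first minus second, with 95% intervals and the value on each array. Intervals of pairs with ALD3, ALD5 or ACS2 second come from the pooled fits and are not like measures to the others. ALD5 minus ACS2 is the pair whose interval spans 0, and ALD3 minus ALD6 is the widest difference.

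The summed linear ratio of each enzyme class came mostly from ALD6 and ALD5 for the dehydrogenases and from ACS2 for the synthetases. ALD6 held 63.1% of the aldehyde dehydrogenase sum on array 1 and 63.3% on array 2, and ALD5 held 28.3% and 27.1%. ALD4 contributed 5.75% ± 0.361 (SD, n = 2), ALD2 2.25% ± 0.224 and ALD3 1.07% ± 0.118. ACS2 held 87.5% and 86.2% of the synthetase sum, and ACS1 12.5% and 13.8%. With RNA alone the shares were 78.6% for ALD6 and 94.4% for ACS2. These are shares of array signal, with no test, and say nothing of protein or enzyme activity.

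Across the 7 genes, log2 RNA and log2 DNA signals went together, with Pearson's r at 0.867 and Spearman's rho at 0.857 (n = 7 genes that share both arrays), as a description. Over all 6250 genes Pearson's r was 0.376. The part of this relation in the ratios was not tested.

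The genes around this route were read from lists that follow its steps. Each list count stands against 28.2% of all genes called above and 31.2% called below. Upstream, of 11 pyruvate decarboxylase and alcohol dehydrogenase genes, 5 were above the median gene, 4 below and 2 not called (list median 0.75, against -0.00 over all genes). With RNA alone this median was 0.13, and the medians of the lists below moved as well, without a change of sign. PDC1, the main pyruvate decarboxylase, lay at 5.68 ± 0.06, and ADH1, the main ethanol-forming dehydrogenase, at 5.08 ± 0.04. ADH7 lay at -3.64 ± 0.10, ADH5 at -1.01 ± 0.18 and the glucose-repressed ADH2 at -2.87 ± 0.05. PDC6 RNA did not exceed the floor on either array, so its ratio is at most -6.08.

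Of 9 genes of the pyruvate dehydrogenase complex, the mitochondrial route to acetyl-CoA, and its kinases and phosphatases, 4 were above, 2 below and 3 not called (list median 0.54). The subunit genes PDA1 and LAT1 lay at 2.69 ± 0.01 and 2.37 ± 0.00. The kinase genes PKP2 and PKP1 lay at -1.84 ± 0.01 and -2.33 ± 0.02.

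Of 11 genes that use acetyl-CoA or carry it as carnitine esters, 2 were above, 5 below and 4 not called (list median -0.84). ACC1, acetyl-CoA carboxylase, lay at 3.17 ± 0.00 and ERG10, which starts sterol synthesis, at 2.35 ± 0.03. The carnitine shuttle genes CAT2 and CRC1 lay at -4.09 ± 0.05 and -5.63 ± 0.15. With RNA alone 4 genes of this list were above.

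Of 11 genes of the glyoxylate cycle, gluconeogenesis and acetate uptake, many of them glucose-repressed, 8 were below, 3 above and none was left without a call (list median -2.87). Over all genes, 31.2% were below and 28.2% above, and no response to glucose was measured. ADY2, an acetate transporter, lay at -4.89 ± 0.05, and ATO2 at most at -5.42, with RNA at the floor on array 2. FPS1, a glycerol channel that also admits acetic acid, lay at 1.66 ± 0.19, MDH2 at 1.38 ± 0.01 and ATO3 at 1.04 ± 0.00.

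Of 10 genes tied to coenzyme A synthesis, for which Ald2 and Ald3 supply beta-alanine, 4 were above, 2 below and 4 not called (list median 0.69). Not all of them act after beta-alanine. CAB2 and PAN5 lay at 1.80 ± 0.01 and 1.74 ± 0.01. LEU5, a mitochondrial carrier tied to coenzyme A, lay at -1.12 ± 0.03. FMS1, the polyamine oxidase that starts the route to beta-alanine, ahead of Ald2 and Ald3, lay at -1.48 ± 0.11. That value is between those of ALD2 and ALD3.

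Of 5 cytosolic genes of the pentose phosphate pathway, which yields NADPH as Ald6 does, 3 were above and 2 below (list median 2.14). GND1 and ZWF1 lay at 3.08 ± 0.07 and 2.26 ± 0.01, and SOL4 and GND2, paralogs of SOL3 and GND1, at -3.81 ± 0.02 and -4.94 ± 0.09. Of 5 other genes of the aldehyde dehydrogenase superfamily, 2 were above, 0 below and 3 not called (list median 0.91). PRO2 and MSC7 lay at 2.47 ± 0.02 and 1.96 ± 0.03, and HFD1 and UGA2 at 0.67 ± 0.01 and -0.78 ± 0.01, not called.

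Of 12 regulators of these genes, 2 were above, 2 below and 8 not called (list median -0.24). SNF1, the kinase needed to relieve glucose repression, lay at 1.88 ± 0.07, and REG1, which holds that kinase in check, at 1.26 ± 0.01. CAT8 and SIP4, activators of glucose-repressed genes, lay at -3.44 ± 0.15 and -4.44 ± 0.21. With RNA alone 5 of the 12 were below.

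**Figure D5:**
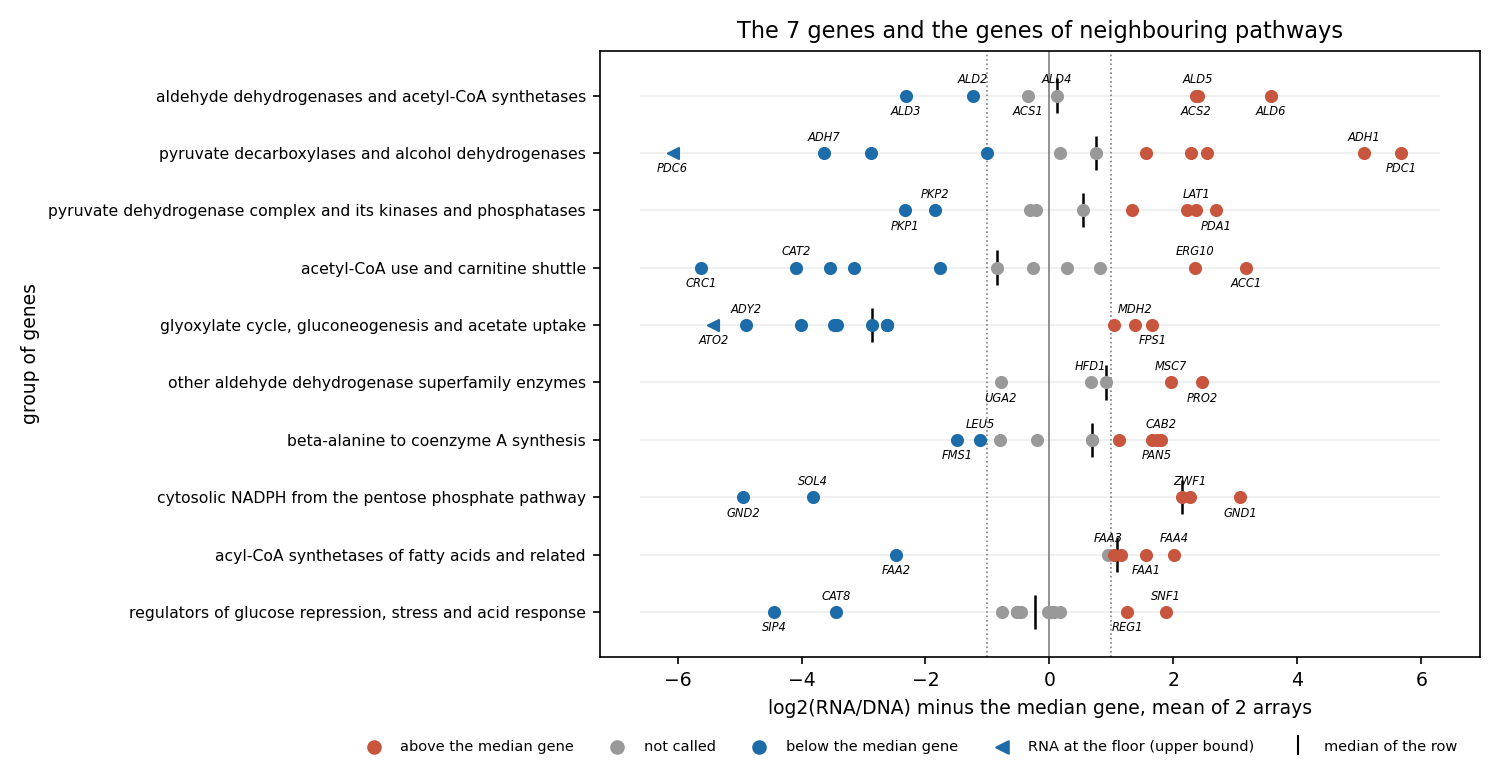
Mean log2 RNA/DNA ratio of each gene in the lists around the route, with list medians and the 7 genes. The glyoxylate, gluconeogenesis and acetate uptake list has the lowest median, at -2.87.

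By mean log2 ratio over both arrays, the gene nearest to ALD6 was HHF1, at 3.58, a histone H4 gene with a near-identical copy (signal shared with that copy was not tested), and the nearest to ALD5 was CHA1, a serine and threonine deaminase, at 2.39. ERD2 lay nearest to ACS2 at 2.37, CAF40 nearest to ALD4 at 0.12 and BCK1 nearest to ACS1 at -0.35. FRE2, a ferric reductase, lay nearest to ALD2 at -1.24, and GPX1, a glutathione peroxidase, nearest to ALD3 at -2.32. Likeness here is the absolute difference in log2 ratio over 2 arrays of 1 condition, the largest being 0.00382 for ALD6.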

How the data were processed

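Total RNA (Cy3) and genomic DNA (Cy5) were hybridised to 2 arrays without a dye swap, per the labels, so dye and molecule cannot be told apart. Per the submitters' processing notes, the scans were read with Agilent Feature Extraction, version 10.5.1.1. The deposited values used are background-subtracted spot intensity values, which can be negative, with no dye normalization, per the file headers. Coordinates are left out, since the authors' build is not given in the sources used here. RefSeq assembly R64 of S288C held 5756 of the 6256 systematic names.

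Spots entered if, on both arrays, DNA was well above background and no saturation or non-uniformity flag was set in either channel (43721 of 43792 spots, 6250 genes). RNA under 3 SD of the 153 negative control spots was raised to that floor. Each gene's ratio was tested in limma 3.58.1 (R 4.3.3, intercept-only model, Benjamini-Hochberg over all genes, 2 arrays). The fit was also tried on simulated data, and no result here rests on that trial. Each pair fit subtracted 1 member's ratio from every gene. Other values used Python 3.11.15, numpy 2.4.6, pandas 2.3.3, scipy 1.17.1 and matplotlib 3.10.9. The number of arrays, 2, limits the precision. Named genes are the 7 members, the 2 highest and 2 lowest of each list, list genes called on the other side of the median gene from their list's median, and the nearest gene to each member. The members and lists were chosen with earlier results of these data known.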

Additional observations from a re-analysis of the deposited data

How the results depend on the processing

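No paired analysis was possible because both arrays belong to 1 group. Alternatives concerned the floor and thresholds, the signal, its background and normalization, how spots were filtered and summarised, the use of the DNA channel, and the variance model. The summed variance of both members was chosen after seeing the data. Of the member values against the median gene, 86 were counted as kept, 1 reversed, 3 became calls and 1 lost its call. Of the pair differences, 283 were counted as kept, 3 became calls and 8 lost their call. The kept counts include single-array values, which have no p-value and no call. With 2 arrays, a member's value on each lies within their SD of the mean by construction, so only a change of sign could have counted against it. Several settings, such as leaving out genes at the floor, changed no pair difference at all. The kept counts are therefore no measure of stability. The reversal was ALD4, at -0.072 without genes at the floor. With RNA alone, ACS1 (-1.21) and ACS1 minus ALD4 (-1.79) became calls, and ALD2 minus ALD3 (0.83) and ALD3 minus ACS1 (-0.91) lost theirs. With processed signals ALD2 minus ALD3 was 0.98 and lost its call. At a log2 threshold of 2, calls were lost, by construction, for ALD2 (-1.23), ALD2 minus ALD3 (1.08), ALD2 minus ALD4 (-1.36), ALD3 minus ACS1 (-1.96), ALD5 minus ALD6 (-1.19) and ALD6 minus ACS2 (1.21). With adjusted p alone, ACS1 (-0.35), ALD4 (0.12), ALD2 minus ACS1 (-0.88) and ACS1 minus ALD4 (-0.47) became calls. Genes called above numbered 774 at the threshold of 2 and 2944 with adjusted p alone, against 1760, and those below 1278 and 2952, against 1952.

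Of the list counts 181 were within 1.5 times and 17 moved. At the threshold of 2, counts above were 0 for the glyoxylate list, 1 for other aldehyde dehydrogenases, 0 for coenzyme A synthesis, 1 for acyl-CoA synthetases and 0 for regulators, and counts below were 1 for the pyruvate dehydrogenase list and 0 for coenzyme A synthesis. With adjusted p alone, counts above were 4 for acetyl-CoA use and 4 for other aldehyde dehydrogenases, and counts below were 4 for pyruvate dehydrogenase, 1 for other aldehyde dehydrogenases, 4 for coenzyme A synthesis and 6 for regulators. With RNA alone, 4 acetyl-CoA use genes and 2 acyl-CoA synthetases were above and 5 regulators below. Without genes at the floor, 2 acyl-CoA synthetases were above. Of the list medians 40 held within the spread between arrays and 32 moved, with no change of sign. All 9 moved with RNA alone, to 0.13 for pyruvate decarboxylases and alcohol dehydrogenases, 1.37 for pyruvate dehydrogenase, -0.14 for acetyl-CoA use, -3.31 for the glyoxylate list, 0.36 for other aldehyde dehydrogenases, 0.39 for coenzyme A synthesis, 2.66 for NADPH, 0.79 for acyl-CoA synthetases and -0.61 for regulators, and all 9 without genes at the floor. With RNA alone, class shares were 0.812% for ALD2, 0.456% for ALD3, 2.96% for ALD4, 17.2% for ALD5, 78.6% for ALD6, 5.64% for ACS1 and 94.4% for ACS2. Processed signals gave 63.4% for ALD6, 14.1% for ACS1 and 85.9% for ACS2, and means over spots 63.5% for ALD6. By construction, the RNA-alone changes come from leaving out the division by the DNA signal and from the centring after it. The cause of the processed-signal changes was not tested. A single array leaves no spread, so counts of called genes were not made from 1 array, and single-array values are those given for each array.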

Other observations

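Acyl-CoA synthetases of fatty acids and related enzymes run the same kind of reaction as Acs1 and Acs2, mostly on longer acids. Of 6 such genes, 4 were above the median gene, 1 below and 1 not called (list median 1.099). Among all genes, 28.2% were called above. FAA4 and FAA1, the main long-chain activating enzymes, lay at 2.02 ± 0.10 and 1.57 ± 0.01. FAA3 lay at 0.95 ± 0.01, not called, and FAA2, a peroxisomal enzyme, at -2.47 ± 0.03 and was called below (SD, n = 2 each). The count above was 2 with RNA alone, where the ratio is not divided by the DNA signal. It was also 2 without genes at the floor, which moves the median gene up by 0.19 and so lowers every remaining gene by that amount.

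The chromosomal neighbours of the 7 genes, in RefSeq order and chosen after values were seen, ranged widely. ALD2 and ALD3 are adjacent and flanked by EAR1 at -1.19 ± 0.02 and CEP3 at -1.58 ± 0.08, all called below the median gene, as were 31.2% of all genes. Of the neighbours of ACS1, PEX22 lay at -2.28 ± 0.13 and FLC2 at -0.17 ± 0.03, and of those of ALD4, NUD1 lay at -1.35 ± 0.02 and GDH1 at 2.95 ± 0.06. ACS2 lay between YLR152C at -2.99 ± 0.07 and RNH203 at 0.35 ± 0.05. ALD6 lay between YPL062W, at most at -6.14 with RNA at the floor, and MFM1 at -2.85 ± 0.03. ALD5 lay between VTC1 at 3.60 ± 0.05 and RPS24A at 4.77 ± 0.03.

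The same spot gave the highest ratio on both arrays for 4 of the 7 genes, and for ALD2, ALD3 and ALD6 it was spot 7. Spots are numbered by file order within each gene, so spot 7 is not taken as 1 shared place. On array 1, spot 7 lay at -0.74 for ALD2, -1.89 for ALD3 and 3.86 for ALD6. The medians over spots used for these genes were -1.30, -2.39 and 3.62. The cause of these differences was not tested.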
